A study of Mus musculus with 12 samples.

Results

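The mammalian circadian clock genes were followed in mpkCCD cells, an immortal line of mouse cortical collecting duct cells with a principal cell origin, with and without the osmosensitive transcription factor NFAT5 and in isotonic or hypertonic medium. The set held 10 genes, Clock, Per1, Per2, Per3, Cry1, Cry2, Nr1d1, Nr1d2, Dbp and Bhlhe40, which were picked by symbol from 52015 genes with a usable row. All 10 were found, and each was above the limit of 0.5 FPKM (fragments mapped to a gene, scaled for its exon length and for the depth of the library) in every group, so no member was lost to the filter on low values.

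The clock is a transcriptional loop. CLOCK and its partner ARNTL (BMAL1) bind E-boxes and switch on the Per and Cry genes, whose proteins return to the nucleus and repress CLOCK and ARNTL. A second loop runs through the nuclear receptors NR1D1 and NR1D2 (REV-ERB alpha and beta), which repress Arntl, and an output branch runs through DBP and the related factors TEF and HLF, which bind D-boxes. BHLHE40 (DEC1) is a further repressor that competes for E-boxes. In the renal collecting duct the clock, and Per1 in particular, is known for its link to sodium transport genes.

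The cultures fell into 4 groups with 12 RNA-seq libraries in all. Scr_300 and Scr_600 (2 libraries each) were mpkCCD cells with a scramble guide RNA, labelled wild type, and Nfat5-KO_300 and Nfat5-KO_600 (4 libraries each) came from the CRISPR/Cas9 clones N1 and N3, so that effects of a clone and of the deletion cannot be told apart. The cells stood for 5 days in medium of 300 mosmol/kg, or of 600 mosmol/kg reached with 100 mM NaCl and 100 mM urea, and all groups had serum-containing DMEM/F-12. The deposited values were 1 FPKM per gene and group, with no value per library, and the results below rest on these values alone, so that they carry no error, interval or test and the depth behind them was unknown. No hour of harvest or of medium change is given in the sources used here and no synchronisation is named, so a shift in phase and a change in mean level cannot be told apart.

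Nfat5 itself stood at 5.61 FPKM in Scr_300 and 3.47 in Nfat5-KO_300, and at 7.93 in Scr_600 and 6.88 in Nfat5-KO_600. Its transcript was thus lower in both knockout groups but still present, and FPKM over the whole gene does not show whether the protein was lost. The epithelial markers Epcam, Cdh1, Krt8 and Krt18 were all detected, with sums of 952 to 1492 FPKM. Of 9 principal cell markers, 4 reached 0.5 FPKM in a group, while Aqp2 stayed at or below 0.245 FPKM and Avpr2, Scnn1b, Scnn1g and Elf5 were near 0. Their summed level was 9.80 in Scr_300, 8.68 in Scr_600, 20.5 in Nfat5-KO_300 and 46.4 in Nfat5-KO_600, mostly through Gata3 (3.41, 4.33, 11.8 and 30.0 FPKM in that order). This marker sum was highest in Nfat5-KO_600, the group in which several clock genes were also highest, and its part in their values was not tested. Fibroblast and endothelial marker sums were at most 0.239 and 0.192 FPKM. Those of intercalated cells and of the thick ascending limb were at most 1.04 and 0.0608, those of leukocytes 1.44 to 2.62, nearly all from Cd68, and those of the proximal tubule 0.0165 to 1.08, the highest in Nfat5-KO_600 through Lrp2.

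The proximal promoters show which of the binding sequences named above lie close to these genes, and they are given here for the members whose upstream stretch holds an E-box or D-box (Per1, Per3, Cry1) and for those whose responses to hypertonic medium pointed in opposite directions in the 2 genotypes (Nr1d1, Nr1d2, Dbp). Sequences are from RefSeq (GRCm38.p6), 5′ to 3′ on the gene's strand and without annotated exons, and 8 of the 10 members had an entry. Per2 and Bhlhe40 had none. Except for Dbp, only the part around the letters in capitals is printed, for Cry1 36 of 240 bases outside exons. Not every start site of Per1 is shown. Capitals mark the letters searched on both strands in the 250 bases before each start site. These were the E-box CACGTG, the D-box as TTATGTAA or TTACGTAA, the Rev-erb half-site AGGTCA, the cAMP response element TGACGTCA with its half-site TGACG (each full element also holds the half-site), and TGGAAA, the core of the tonicity element that NFAT5 binds.
Per1 (chr11:69098699-69098832, plus strand): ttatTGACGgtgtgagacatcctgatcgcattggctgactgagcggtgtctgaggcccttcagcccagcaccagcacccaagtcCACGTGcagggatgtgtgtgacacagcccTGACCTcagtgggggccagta
Per3 (chr4:151044801-151044885, minus strand): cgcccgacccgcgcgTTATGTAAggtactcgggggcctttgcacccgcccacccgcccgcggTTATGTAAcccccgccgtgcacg
Cry1 (chr10:85185094-85185129, minus strand): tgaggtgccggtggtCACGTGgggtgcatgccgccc
Nr1d1 (chr11:98775378-98775595, minus strand): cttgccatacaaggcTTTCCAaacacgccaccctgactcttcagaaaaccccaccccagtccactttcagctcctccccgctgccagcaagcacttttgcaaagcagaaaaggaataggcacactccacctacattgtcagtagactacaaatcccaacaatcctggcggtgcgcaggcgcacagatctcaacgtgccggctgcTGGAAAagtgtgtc
Nr1d2 (chr14:18239163-18239198, minus strand): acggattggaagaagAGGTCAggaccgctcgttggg
Dbp (chr7:45704997-45705087, plus strand): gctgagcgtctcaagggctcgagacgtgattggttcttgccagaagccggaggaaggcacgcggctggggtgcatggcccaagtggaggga

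Among the 8 members with an entry, Per1 and Cry1 held the E-box letters, which occurred in 6.02% of all 32851 promoter windows of this length. Per3 held the D-box letters, present in 0.931% of the windows, at 2 places. The AGGTCA half-site was found for Clock (at an alternative start site), Per1 and Nr1d2, against 14.0% of all windows. TGGAAA was found for Nr1d1 only among the 8 members, at 2 places, against 18.6% of all windows. No member held the full TGACGTCA, which 1.55% of windows held, and TGACG was found for Per1, Cry1 and Cry2 against 17.8%. The Cry1 match, at -8 from the start site, lies outside the stretch printed above. The Dbp stretch, cut short by an annotated exon, held none of these letters. Clock and Per1 had several start sites and were counted if any of their windows matched, whereas the shares are over single windows. The matches are letters in short windows and not shown to be sites in use, and enhancers farther away were not searched.

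As FPKM is per length, levels can be compared between genes, although in a bulk culture fewer cells with a transcript and less of it per cell cannot be told apart. In Scr_300 the 10 genes ranged from 1.85 to 10.8 FPKM with a median of 3.19, and they lay between the 26.2 and 67.2 percentile of the 13414 genes that reached 0.5 FPKM in any group. Bhlhe40 was the highest (10.8 FPKM), followed by Cry1 (9.40), Nr1d2 (8.95), Clock (5.06), Nr1d1 (3.45) and Cry2 (2.94), and Dbp, Per1, Per2 and Per3 closed the order between 2.27 and 1.85 FPKM. Without replicate values neighbours cannot be separated by their spread. The largest step in this order was the 1.77-fold one from Nr1d2 to Clock, whereas Dbp, Per1 and Per2 followed each other within 1.05-fold. In Nfat5-KO_600 the order differed: Nr1d2 came first with 11.1 FPKM, Bhlhe40 ranked behind Cry1, Clock and Nr1d1 with 3.95 FPKM, and Per3 remained the lowest with 1.92 FPKM.

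**Figure D1:**
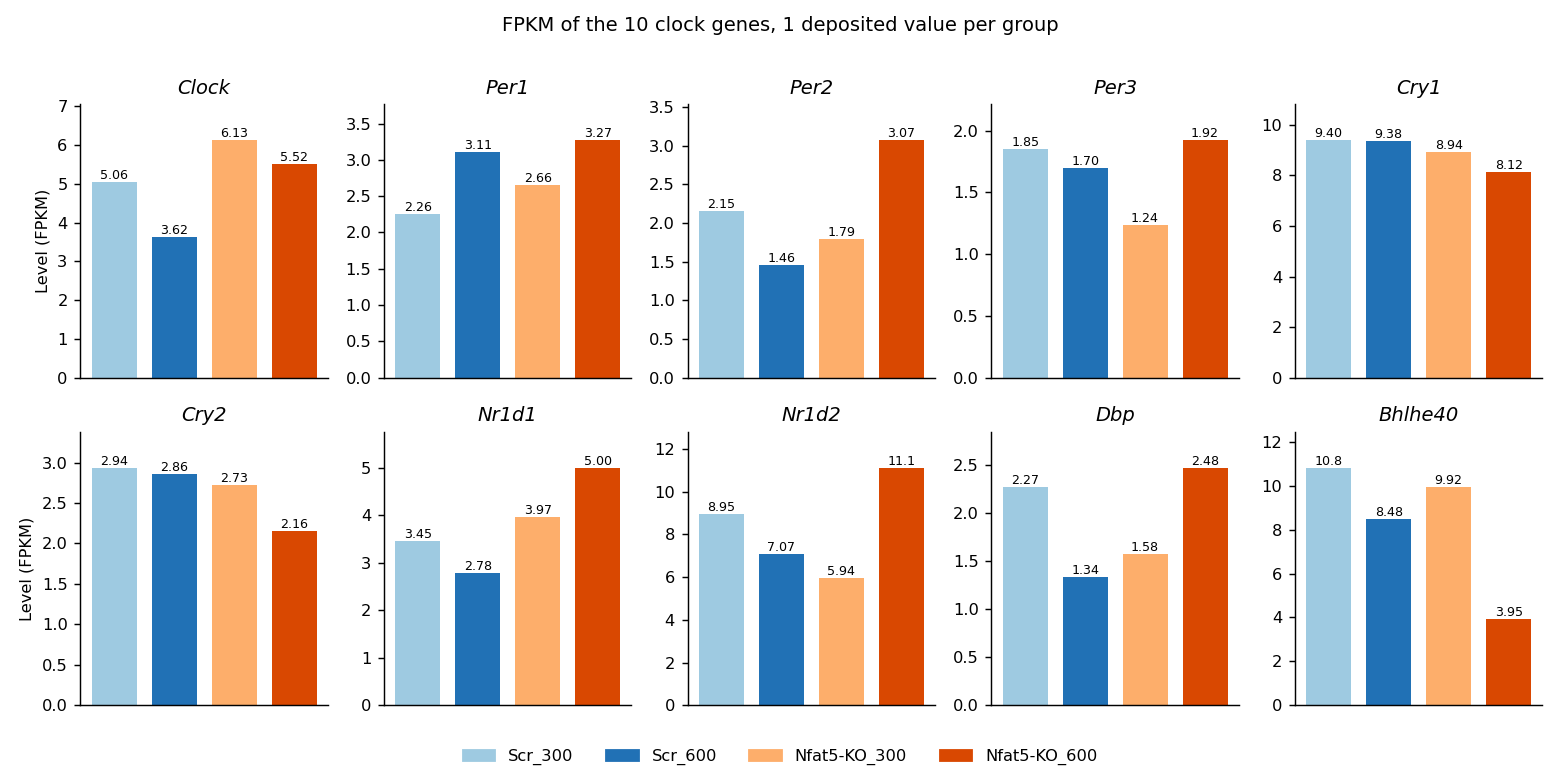
Level of each of the 10 clock genes in FPKM (vertical axes from 0, a separate scale for each gene), with 1 bar for the deposited value of each group and no error bars because no library values were used. Per2, Per3, Nr1d1, Nr1d2 and Dbp share a shape in which Scr_600 is below Scr_300 and Nfat5-KO_600 is the highest bar. For Per3 the step between the Scr bars is small (1.85 and 1.70 FPKM). Bhlhe40 has its lowest bar, 3.95 FPKM, in Nfat5-KO_600.

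In the positive arm, Clock, which encodes a histone acetyltransferase of the bHLH-PAS family, was 5.06 FPKM in Scr_300, 3.62 in Scr_600, 6.13 in Nfat5-KO_300 and 5.52 in Nfat5-KO_600. Both knockout values were above both Scr values. Nfat5-KO_600 was 1.51-fold higher than Scr_600 (log2 ratio 0.60), and the isotonic groups differed by a log2 ratio of 0.27. Scr cells had a lower value in hypertonic medium (log2 ratio -0.47). For Nfat5-KO cells the log2 ratio was -0.15 and turned to 0.09 when the FPKM were rescaled to the same sum in each group. Arntl, the partner of Clock, lay between 1.48 and 1.81 FPKM, with log2 ratios from 0.01 to 0.26 in the 4 comparisons. The level of Clock relative to Arntl was therefore lowest in Scr_600 (2.02) and between 3.06 and 3.85 in the other groups.

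Among the Period genes, which encode the PAS-domain repressors, Per1 was 2.26 FPKM in Scr_300, 3.11 in Scr_600, 2.66 in Nfat5-KO_300 and 3.27 in Nfat5-KO_600. It was the only member higher at 600 than at 300 mosmol/kg in both genotypes as deposited, with log2 ratios of 0.44 in Scr and 0.29 in Nfat5-KO cells. At 600 mosmol/kg the genotypes were 1.05-fold apart.
Per2 was 2.15 FPKM in Scr_300, 1.46 in Scr_600, 1.79 in Nfat5-KO_300 and 3.07 in Nfat5-KO_600. The 2 hypertonic groups were the extremes, so that Nfat5-KO_600 was 2.03-fold higher than Scr_600 (log2 ratio 1.02), whereas the isotonic knockout was lower than its control (log2 ratio -0.26). Between hypertonic and isotonic medium the log2 ratio was -0.53 for Scr and 0.75 for Nfat5-KO.
Per3 was 1.85 FPKM in Scr_300, 1.70 in Scr_600, 1.24 in Nfat5-KO_300 and 1.92 in Nfat5-KO_600. Its lowest value was the isotonic knockout (log2 ratio -0.54 against Scr_300), and Nfat5-KO_600 was close to the Scr groups. Its log2 ratio between hypertonic and isotonic medium was 0.60 for Nfat5-KO, and for Scr it was -0.11, which turned to 0.01 on rescaling to the same sum.
The relation among the Period genes differed between groups. Per1 and Per2 were nearly level in Scr_300 (ratio 1.05) and in Nfat5-KO_600 (1.06), but Per1 was 2.13 times Per2 in Scr_600. Summed over the 3 genes, the level was 6.26 FPKM in Scr_300, 6.27 in Scr_600, 5.69 in Nfat5-KO_300 and 8.27 in Nfat5-KO_600.

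The Cryptochromes, the partners of the PER proteins in repression, varied least. Cry1 was 9.40 FPKM in Scr_300, 9.38 in Scr_600, 8.94 in Nfat5-KO_300 and 8.12 in Nfat5-KO_600, with a largest log2 ratio of -0.21 (Nfat5-KO_600 against Scr_600). Cry2 was 2.94, 2.86, 2.73 and 2.16 FPKM in the same order, and its largest log2 ratio was -0.39 in the same comparison. Both genes were lower in the knockout than in Scr cells at either osmolality. Between the Scr groups the log2 ratios were -0.00 and -0.04 as deposited, and 0.13 and 0.09 after rescaling to the same sum, so no direction can be given there. Cry1 stayed at 3.20 to 3.76 times the level of Cry2.

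Of the Rev-erb receptors, Nr1d1 was 3.45 FPKM in Scr_300, 2.78 in Scr_600, 3.97 in Nfat5-KO_300 and 5.00 in Nfat5-KO_600. Both knockout values lay above both Scr values, and Nfat5-KO_600 was 1.77-fold higher than Scr_600 (log2 ratio 0.82). Of the exonic bases of Nr1d1, 8.55% overlap Thra on the opposite strand. Whether the counting used strand is not given, and Thra followed another course (3.39, 5.19, 2.94 and 4.21 FPKM).
Nr1d2 was 8.95 FPKM in Scr_300, 7.07 in Scr_600, 5.94 in Nfat5-KO_300 and 11.1 in Nfat5-KO_600. The knockout held both the lowest and the highest value. Nr1d2 was 1.50-fold lower in the isotonic knockout than in Scr_300 (log2 ratio -0.58) and 1.57-fold higher in the hypertonic knockout than in Scr_600 (log2 ratio 0.65). Within Nfat5-KO cells, hypertonic medium went with a 1.86-fold higher level (log2 ratio 0.89), the largest increase of any member in any comparison except Per2 between the genotypes at 600 mosmol/kg. Nr1d1 was 0.385 to 0.450 times Nr1d2 in 3 groups and 0.668 times in Nfat5-KO_300. Together they reached 16.1 FPKM in Nfat5-KO_600 against 9.85 to 12.4 FPKM elsewhere, while Arntl, the gene they repress, was 1.81 FPKM in Nfat5-KO_600 and 1.79 in Scr_600.

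The output gene Dbp, a PAR bZIP activator of D-box genes, was 2.27 FPKM in Scr_300, 1.34 in Scr_600, 1.58 in Nfat5-KO_300 and 2.48 in Nfat5-KO_600. Values were low in the hypertonic control and the isotonic knockout and higher in the other 2 groups. Dbp had the lowest ratio of any member for hypertonic medium in Scr cells (log2 ratio -0.72, 1.65-fold lower), and in Nfat5-KO cells the log2 ratio was 0.62. At 600 mosmol/kg it was 1.79-fold higher in the knockout (log2 ratio 0.84), and at 300 mosmol/kg 1.41-fold lower (log2 ratio -0.50). Exons of Sphk2 on the other strand overlap 18.0% of its exonic bases, and Sphk2 was 4.50 to 5.22 FPKM in all groups.
The relatives of Dbp, named here after their values were seen, were also highest in Nfat5-KO_600 and lower in Scr_600 and Nfat5-KO_300 than in Scr_300. Tef was 7.13 FPKM in Scr_300, 6.19 in Scr_600, 5.98 in Nfat5-KO_300 and 9.63 in Nfat5-KO_600, and Hlf, below the limit of 0.5 FPKM everywhere, was 0.228, 0.150, 0.162 and 0.313 FPKM. At 600 mosmol/kg the knockout was above the control by a log2 ratio of 0.63 for Tef and 0.73 for Hlf, and at 300 mosmol/kg below it by -0.25 and -0.33. Nfil3, a repressor at D-boxes, went the other way at 600 mosmol/kg (5.08 FPKM in Scr_600 and 4.28 in Nfat5-KO_600).

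The E-box repressor Bhlhe40 was 10.8 FPKM in Scr_300, 8.48 in Scr_600, 9.92 in Nfat5-KO_300 and 3.95 in Nfat5-KO_600. Only the hypertonic knockout stood apart. It was 2.12-fold below Scr_600 (log2 ratio -1.08) and 2.48-fold below Nfat5-KO_300 (log2 ratio -1.31), whereas the isotonic groups differed by a log2 ratio of -0.12 and hypertonic medium in Scr cells by -0.35. Its paralogue Bhlhe41 was 1.50 FPKM in Scr_300, 1.71 in Scr_600, 0.804 in Nfat5-KO_300 and 0.547 in Nfat5-KO_600. Bhlhe41 was thus lower in both knockout groups, with a log2 ratio of -1.49 at 600 and -0.82 at 300 mosmol/kg. The summed level of the 2 repressors was 4.49 FPKM in Nfat5-KO_600 and 10.2 to 12.3 FPKM in the other groups. Nr1d2 was 2.82 times Bhlhe40 in Nfat5-KO_600 and 0.599 to 0.834 times Bhlhe40 elsewhere.

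The first comparison set the knockout clones against Scr cells in isotonic medium. No clock gene reached a 2-fold difference between Nfat5-KO_300 and Scr_300, whereas 1.73% of 12704 genes did so upwards and 2.44% downwards. Clock, Per1 and Nr1d1 were higher and the other 7 lower in the knockout, beside 49.8% of all genes higher, with a median log2 ratio of -0.11 against -0.00 over all genes. The lowest ratios were those of Nr1d2 (-0.58), Per3 (-0.54) and Dbp (-0.50).

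The second comparison set the same cells against each other in hypertonic medium. At 600 mosmol/kg Per2 passed 2-fold upwards and Bhlhe40 passed it downwards in the knockout, which is 1 of 10 genes in each direction beside 3.76% higher and 3.68% lower among 13063 genes. With 10 genes, 1 call is not a result about the set. Both calls were near the limit and each was lost under another scaling (log2 ratio of Per2 0.97 with median-of-ratios factors, of Bhlhe40 -0.96 with the same sum in each group). By direction alone, 7 were higher and Cry1, Cry2 and Bhlhe40 were lower, beside 47.8% of all genes higher. The median log2 ratio was 0.38 against -0.02 over all genes. Of the 7 higher genes, Per2, Dbp, Nr1d1, Nr1d2 and Clock had log2 ratios from 0.60 to 1.02, and Per3 (0.17) and Per1 (0.07) were close to 0. Clock, Per1 and Nr1d1 were higher, and Cry1, Cry2 and Bhlhe40 lower, in the knockout at both osmolalities. Only Per2, Per3, Nr1d2 and Dbp had the opposite sign at 300 mosmol/kg.

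The third comparison was the response of control cells to hypertonic medium. Between Scr_600 and Scr_300 no member reached 2-fold, whereas 4.81% of 12929 genes did so upwards and 2.86% downwards. Per1 was higher and the other 9 were lower, Cry1, Cry2 and Per3 by less than 0.12 on the log2 scale and with a direction that turned on rescaling, beside 45.4% of all genes higher. The median was -0.32 against -0.04 over all genes. Dbp (-0.72), Per2 (-0.53) and Clock (-0.47) had the lowest ratios.

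In Nfat5-KO cells the response to hypertonic medium had another composition. Bhlhe40 was the only member past 2-fold, and it was lower, beside 4.11% of 12982 genes past that limit downwards and 6.25% upwards. Per1, Per2, Per3, Nr1d1, Nr1d2 and Dbp were higher and Clock, Cry1, Cry2 and Bhlhe40 lower at 600 mosmol/kg, although Clock (0.09) and Cry1 (0.10) turned to higher on rescaling to the same sum, and 47.1% of all genes were higher. The median log2 ratio was 0.31 against -0.04 over all genes. The sum of FPKM over all genes was lowest in Nfat5-KO_600 (212247, against 231932 to 253756 in the other groups). Rescaling to the same sum moved the median of all genes in this comparison to 0.20, and relative to it the median of the clock genes (0.54 after rescaling) stayed higher.

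Set side by side, the 2 responses ran in opposite directions for several members. They share no group with each other, but both groups of each response also stand in the comparisons of genotypes. All 4 comparisons thus rest on the same 4 values per gene. Per2, Nr1d1, Nr1d2 and Dbp were at least 1.2-fold lower at 600 than at 300 mosmol/kg in Scr cells and at least 1.2-fold higher in Nfat5-KO cells, that is 4 of 10 members where 2.28% of 13414 genes (306) did so. No member had the reverse pattern. Nr1d1 was the closest inside the limit of 0.26 on the log2 scale (-0.30 in Scr and 0.33 in Nfat5-KO cells), and Per3 was the closest outside it (-0.11 and 0.60). Counted by sign alone, these 5 genes had the pattern beside 14.1% of all genes. When the FPKM were rescaled to the same sum, Per2 and Dbp kept the pattern and Nr1d1 and Nr1d2 fell short of 1.2-fold in Scr cells (log2 ratios -0.17 and -0.21). With a pseudocount of 1 FPKM, Nr1d1 fell short in Scr cells (-0.23) and the other 3 kept the pattern, beside 1.02% of all genes.

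**Figure D2:**
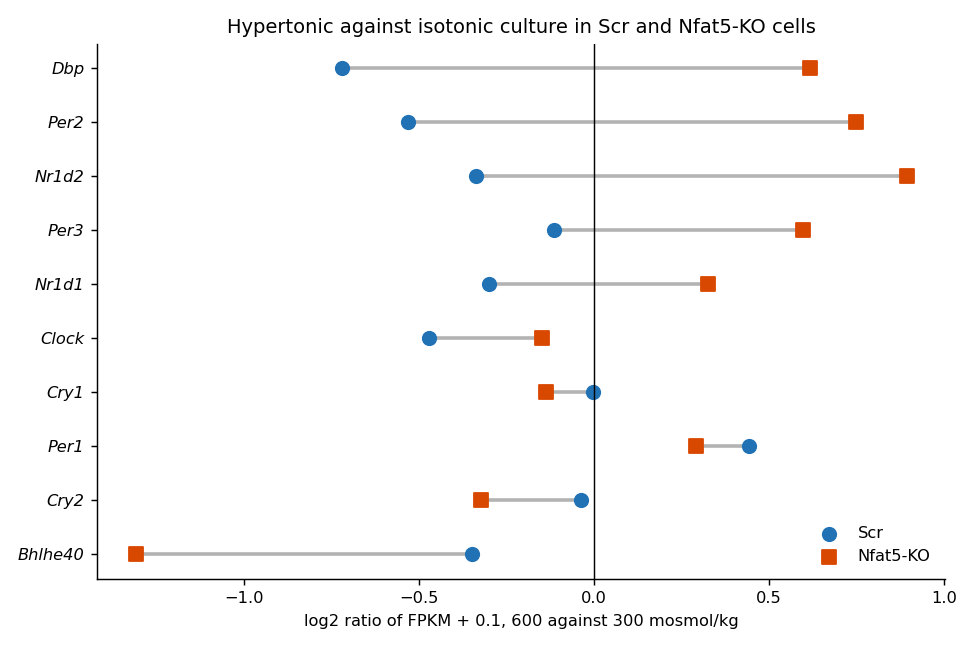
Log2 ratio of FPKM + 0.1 at 600 against 300 mosmol/kg for each clock gene in Scr cells (circles) and Nfat5-KO cells (squares), ordered by the difference between them, with 1 value per point and no error. Dbp, Per2, Nr1d2, Per3 and Nr1d1 lie on opposite sides of 0 in the 2 genotypes, and Bhlhe40 lies at -0.35 and -1.31.

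The size of the difference between genotypes, given as the log2 ratio in Nfat5-KO minus that in Scr cells, was largest for Dbp (1.34), Per2 (1.28) and Nr1d2 (1.23). These 3 exceeded 2-fold, as did 3.88% of the 13414 genes in this direction, and 2.33% of genes had a difference as high as that of Per2. Per3 (0.71), Nr1d1 (0.63) and Clock (0.32) followed. The values for Cry1 (-0.13), Per1 (-0.15), Cry2 (-0.29) and Bhlhe40 (-0.96) were below 0, and none reached 2-fold in that direction, which 3.16% of genes did. The median over the members was 0.47 against -0.01 over all genes. With a pseudocount of 1 FPKM only Nr1d2 was still past 2-fold, Per2 and Dbp no longer were, and with median-of-ratios factors Bhlhe40 passed 2-fold in the lower direction. No error can be attached to these differences from 1 value per group.

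**Figure D3:**
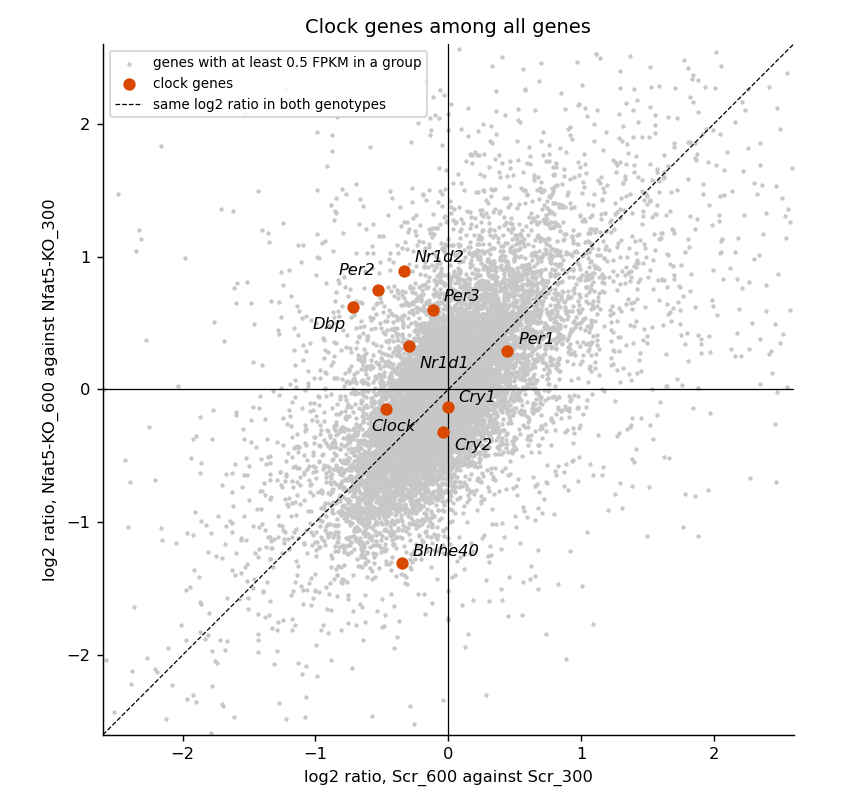
Log2 ratios at 600 against 300 mosmol/kg in Scr cells (horizontal) and Nfat5-KO cells (vertical) for the 13414 genes reaching 0.5 FPKM in any group (grey, 186 of them outside the axes, which end at 2.6) and the 10 clock genes (coloured and named). Per2, Dbp, Nr1d1 and Nr1d2 lie in the upper left quadrant, Per3 beside them near the vertical axis, and Bhlhe40 below the dashed line of equal ratios.

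The members were also compared by the course of their 4 values, as the distance between log2 values centred on each gene's mean. The values were not scaled, so the distance counts the size of changes as well as their shape, and genes that vary little lie close. The closest pair was Cry1 and Cry2 (0.17), the members that varied least, followed by Per2 and Dbp (0.27), Per3 and Nr1d2 (0.34), Nr1d2 and Dbp (0.36) and Per2 and Nr1d1 (0.36). Bhlhe40 was farthest from the others, with 1.76 to Per2. Thus Per2 was closer to Dbp than to its paralogues Per3 (0.65) and Per1 (0.80). Outside the set, out of 11920 genes that reached 1 FPKM in any group, the nearest to Per2 were Dusp4 (0.09), Upk1a (0.14) and Rhob (0.15), and 21 genes lay within 0.25. The nearest to Bhlhe40 were Dmrt2 (0.10), Tmsb4x (0.11) and Gm5855 (0.13), with 22 genes within 0.25. These distances rest on 4 values per gene.

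Other genes of the pathway were examined in lists holding 55 genes, of which 47 reached 0.5 FPKM in any group. Npas2, an alternative to Clock, was near 0. Of the 10 measured kinases and ubiquitin ligases that set the stability of PER and CRY, none differed 2-fold in any comparison. Nor did any of the 9 cofactors or of the clock outputs common to many organs. The cofactor Crebbp was just short of the limit between the hypertonic groups (log2 ratio 0.99 for Nfat5-KO_600 against Scr_600). Its FPKM (4.98 in Nfat5-KO_600 and 2.45 in Scr_600) were past 2-fold without the pseudocount. Across all lists, of 46 genes tested between the hypertonic groups, 3 passed 2-fold upwards in the knockout and 4 downwards, beside 3.76% and 3.68% of all genes. The median log2 ratio of the 46 was -0.01. Of the 47, 2 were lower in Scr_600 and higher in Nfat5-KO_600 by at least 1.2-fold each, beside 2.28% of all genes. They were Scnn1a and, named after its values were seen, the glucocorticoid receptor Nr3c1 (10.7, 8.70, 9.76 and 13.0 FPKM in Scr_300, Scr_600, Nfat5-KO_300 and Nfat5-KO_600). Single lists differed from this. In Nfat5-KO_600 against Nfat5-KO_300 the median log2 ratio was 0.35 for the 9 cofactors and 0.32 for the 6 outputs common to many organs, of which 5 were higher, beside 0.31 for the clock genes. The PAR bZIP genes Tef and Hlf had the signs of Dbp in all 4 comparisons.

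The listed genes that passed 2-fold in a comparison were Egr1 from the inputs, Arntl2, the repressors Bhlhe41 and Id2, and the collecting duct genes Scnn1a, Fxyd5, Edn1 and Sgk1. Egr1, an immediate early factor, was 8.68 FPKM in Scr_300, 11.0 in Scr_600, 2.20 in Nfat5-KO_300 and 1.35 in Nfat5-KO_600, lower in the knockout by log2 ratios of -1.93 and -2.94. Id2, an HLH repressor, was 42.4, 34.4, 74.3 and 82.0 FPKM in this order, higher in the knockout by 0.81 and 1.25. Arntl2, a paralogue of Arntl, was lower at 600 mosmol/kg in both genotypes, by log2 ratios of -0.96 in Scr and -1.19 in Nfat5-KO cells.
Among genes tied to the clock in the collecting duct, Scnn1a, the alpha subunit of the epithelial sodium channel, was 2.95 FPKM in Scr_300, 1.31 in Scr_600, 3.56 in Nfat5-KO_300 and 7.03 in Nfat5-KO_600. Its opposite responses (-1.11 and 0.96) had the same signs as those of Per2 and Dbp. Edn1, which encodes endothelin-1, was 10.5, 11.4, 7.42 and 2.85 FPKM and, like Bhlhe40, lowest in Nfat5-KO_600. The kinase gene Sgk1 was 4.28 FPKM in Scr_600 and at most 0.513 FPKM in the other groups. Fxyd5, a modulator of the sodium pump, was 1.37 FPKM in Scr_300, 0.571 in Scr_600, 2.59 in Nfat5-KO_300 and 1.84 in Nfat5-KO_600. It was thus lower at 600 mosmol/kg in both genotypes, by log2 ratios of -1.13 in Scr and -0.47 in Nfat5-KO cells. Per1, by contrast, differed little between the genotypes at 600 mosmol/kg (log2 ratio 0.07), and the relation of these genes to Per1 was not tested.

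**Figure D4:**
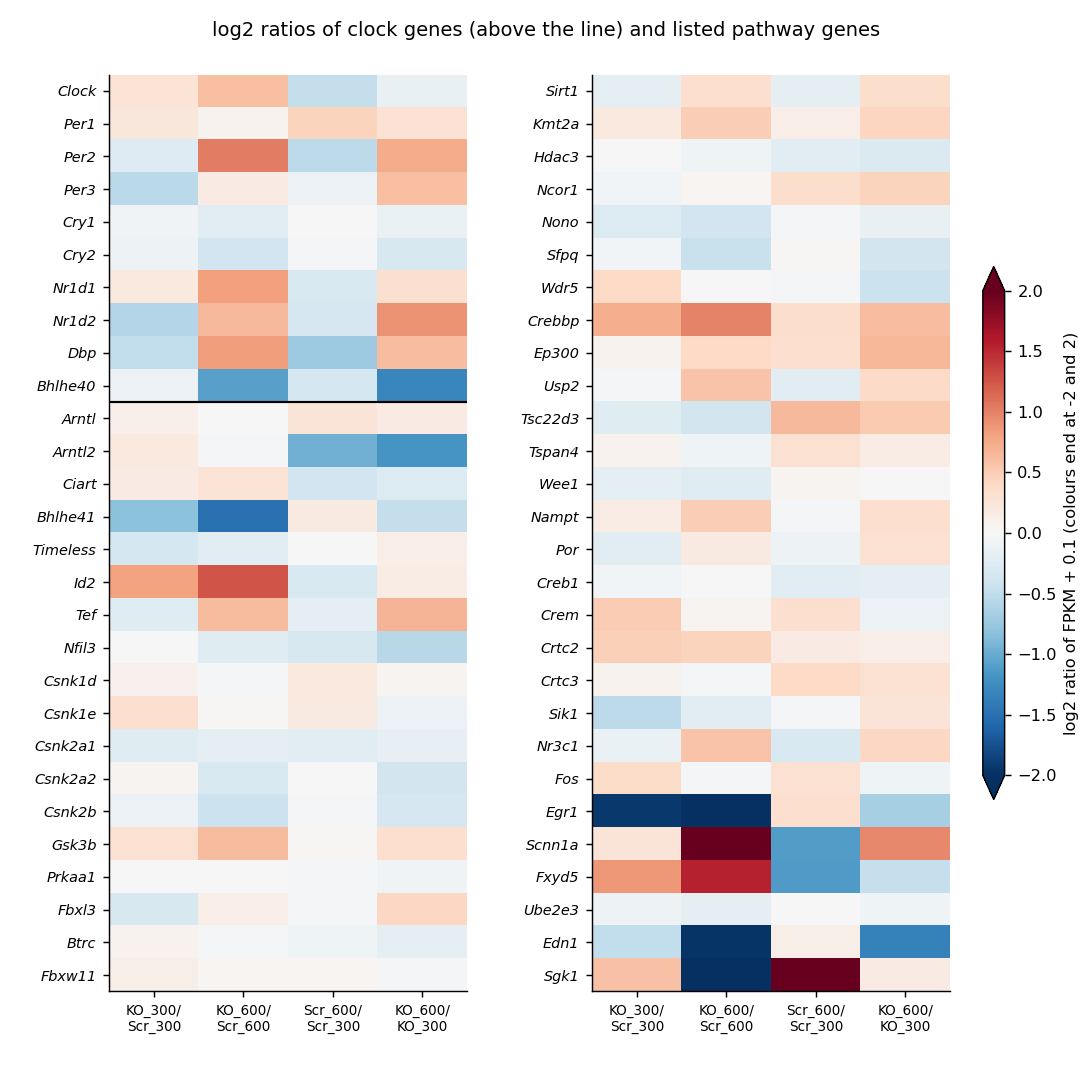
Log2 ratios of FPKM + 0.1 in the 4 comparisons (columns) for the 10 clock genes, above the black line, and for 46 of the listed pathway genes that reached 0.5 FPKM, red for higher and blue for lower in the first-named group, with colours ending at -2 and 2. The clock genes show red in the columns KO_600/Scr_600 and KO_600/KO_300 for Per2, Per3, Nr1d1, Nr1d2 and Dbp, with Per3 faint in the first of these (0.17). No kinase or cofactor reached 2-fold in any column. Some cofactors were nevertheless as far from 0 as these clock genes, such as Crebbp (0.99 in KO_600/Scr_600) and Ep300 (0.67 in KO_600/KO_300).

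Per1 and Nr1d1 both lie on chromosome 11 of GRCm38, and every other member has a chromosome of its own. Per2 spans chr1:91415982-91459324 on the minus strand and Bhlhe40 chr6:108660629-108666925 on the plus strand. Clock lies at chr5:76209868-76304792, Cry1 at chr10:85131700-85185064, and Nr1d2 at chr14:18204054-18239127, all on the minus strand. Dbp spans chr7:45705088-45710203 on the plus strand. Besides Nr1d1 and Dbp, exons of Cry2 and Bhlhe40 overlap a non-coding transcript on the opposite strand by 4.67% and 2.51% of their bases, and these transcripts were at most 0.233 and 0.0363 FPKM.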

How the data were processed

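RNA-seq of 12 mpkCCD cultures was used. Per the methods of the study, the authors cleaned the paired reads of adapters, unresolved bases and poor quality, aligned them with HISAT2 (GRCm38/mm10), obtained gene counts with HTSeq and scaled these for length and depth. They deposited FPKM as 1 number for every gene and group (4 groups). How libraries were combined is not given in the sources used here, and versions of the tools are likewise not given. The matrix has 54839 rows. Left out were 2436 without values, 311 that repeated another row exactly and 37 symbols whose rows disagreed. Log2 ratios were taken of FPKM + 0.1 over genes with at least 0.5 FPKM in either group (in any of the 4 groups for the difference between genotypes), and 2-fold was the limit for a call. Single genes outside the set got a ratio only with at least 0.1 FPKM in both groups. With 1 value per group no p-value was calculated, and values in the study's own tables of comparisons were not used. The members and gene lists were chosen with earlier results of these data known. Besides the 10 members, Arntl and Nfat5, listed genes past 2-fold in a comparison and the 3 genes nearest to each member past 2-fold were named, and other genes were named after their values were seen. Positions and exons came from GENCODE M21. A planned comparison of protein sequences was not made, and 1 list of the pathway is counted in the totals but not reported here. Only the step that takes ratios and calls 2-fold differences was tried on simulated data, which held no noise. The alternatives were pseudocounts of 1 and 0.01, no filter, a limit of 1 FPKM, median-of-ratios factors and FPKM rescaled to the same sum in each group. The work was done in Python 3.11.15 with numpy 2.4.6 and pandas 2.3.3, and figures were drawn with matplotlib 3.10.9.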

Additional observations from a re-analysis of the deposited data

Results flagged for a closer look

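For 4 clock genes the ratio of hypertonic to isotonic values pointed one way in Scr cells and the other way in Nfat5-KO cells. The difference of the log2 ratios, Nfat5-KO minus Scr, was 1.34 for Dbp, 1.28 for Per2, 1.23 for Nr1d2 and 0.63 for Nr1d1. The difference was not tested, since each group has 1 value. The knockout groups combine the clones N1 and N3, and values per clone were not analysed here.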

How the results depend on the processing

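No paired analysis was possible because the deposited values used here are 1 per group, and leaving out replicates could not be run on them for the same reason. Filters on low values could not change a count or median of the clock genes, because their lowest value in any group was 1.24 FPKM. The counts of genes with opposite responses and with a 2-fold difference between genotypes were chosen after seeing the data, and so were the alternatives tried on them. With a pseudocount of 1 FPKM, 0 clock genes were 2-fold apart between Nfat5-KO_600 and Scr_600 (2 as reported), and 1 (Nr1d2, without Per2 and Dbp) differed 2-fold in response between genotypes (3 as reported). It left 3 with opposite responses, without Nr1d1 (4 as reported). With median-of-ratios factors, 1 was 2-fold apart between Nfat5-KO_600 and Scr_600, and 4 differed 2-fold in response, Bhlhe40 being added. Rescaling to the same sum left 1 in that comparison, gave 2 in Nfat5-KO_600 against Nfat5-KO_300 (1 as reported) and left 2 with opposite responses (4 as reported). It moved the median log2 ratio of the clock genes to 0.51 in Nfat5-KO_600 against Scr_600, 0.54 in Nfat5-KO_600 against Nfat5-KO_300 and -0.19 in Scr_600 against Scr_300, and those of all genes to 0.11, 0.20 and 0.09. Of 40 log2 ratios of single members, 5 changed sign under it (Cry1, Cry2 and Per3 in Scr cells, Clock and Cry1 in Nfat5-KO cells) and 1 with median-of-ratios factors (Cry1 in Scr cells, 0.01), and none with either pseudocount. Genes at least 2-fold apart over all genes fell from 491 higher and 481 lower in Nfat5-KO_600 against Scr_600 to 135 and 203 with a pseudocount of 1 FPKM, and in Nfat5-KO_600 against Nfat5-KO_300 they went from 812 and 534 to 1318 and 274 on rescaling.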
